A study of Mus musculus with 9 samples.

Results

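The 26 genes described here encode enzymes of cholesterol biosynthesis, the proteins that control the SREBP transcription factors, and a sterol carrier. They were taken by gene symbol from a list of pathway and regulator genes that was drawn up with earlier results of these data known. All 26 were found among the 50686 genes counted, and all 26 were among the 13852 genes that passed a filter on low counts and were tested. Other enzymes of the pathway were not analysed here.

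The measurements were RNA-seq read counts from polyadenylated RNA of mouse bone marrow cell lines immortalized with BCR/ABLp185, a retrovirally delivered oncogenic tyrosine kinase that activates the transcription factors STAT5A and STAT5B. Wild-type (wt), Stat5a-/- and Stat5b-/- lines, all carrying BCR/ABLp185 and all on the C57BL/6N background, were each represented by 3 libraries. Those 3 libraries were technical replicates of 1 line per genotype, so every p-value below measures the spread between libraries of a line, and genotype and line cannot be told apart. The 9 libraries held 11948136 to 19016396 reads counted to genes.

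Cells make cholesterol from acetyl-CoA through mevalonate, farnesyl diphosphate, squalene and lanosterol, and branches of the mevalonate part supply lipid anchors for small GTPases. When membrane sterols are low, the escort protein SCAP carries the SREBP precursors to the Golgi, where proteolysis frees the active factor, which induces most enzymes of the pathway together. When sterols are plentiful, the INSIG proteins hold SCAP in the endoplasmic reticulum and the enzymes fall together.

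Promoter sequences of 4 genes on which the results below turn are shown first: Hmgcs1, the one member whose promoter window held a match to the sterol response element letters searched, Mvd, the enzyme with the largest fall in Stat5b-/- cells, and Lbr and Tm7sf2, a pair of reductases for one step that were both higher in both knockouts. Each is the stretch of 250 bases before the RefSeq transcript start (build GRCm38.p6), read 5′ to 3′ on the strand of the gene, and capitals mark TCACNCCAC or CCAAT on either strand. The windows are chr13:119690101-119690350, plus strand (Hmgcs1), chr8:122443423-122443672, minus strand (Mvd), chr1:181842402-181842651, minus strand (Lbr) and chr19:6067851-6068100, minus strand (Tm7sf2).
Hmgcs1: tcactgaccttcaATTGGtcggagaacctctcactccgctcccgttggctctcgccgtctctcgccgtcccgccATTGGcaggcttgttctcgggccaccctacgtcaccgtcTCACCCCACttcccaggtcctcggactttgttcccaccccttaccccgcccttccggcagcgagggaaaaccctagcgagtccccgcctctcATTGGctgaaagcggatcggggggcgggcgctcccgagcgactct
Mvd: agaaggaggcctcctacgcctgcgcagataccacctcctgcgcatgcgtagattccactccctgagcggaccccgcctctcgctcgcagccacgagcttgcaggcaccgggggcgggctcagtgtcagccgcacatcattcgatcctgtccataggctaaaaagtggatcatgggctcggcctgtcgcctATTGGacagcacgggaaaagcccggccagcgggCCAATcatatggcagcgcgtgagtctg
Lbr: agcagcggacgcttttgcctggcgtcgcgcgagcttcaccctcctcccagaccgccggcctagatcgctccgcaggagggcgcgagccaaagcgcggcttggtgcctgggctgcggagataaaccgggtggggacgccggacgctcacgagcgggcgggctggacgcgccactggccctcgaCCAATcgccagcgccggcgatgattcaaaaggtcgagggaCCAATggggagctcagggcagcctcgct
Tm7sf2: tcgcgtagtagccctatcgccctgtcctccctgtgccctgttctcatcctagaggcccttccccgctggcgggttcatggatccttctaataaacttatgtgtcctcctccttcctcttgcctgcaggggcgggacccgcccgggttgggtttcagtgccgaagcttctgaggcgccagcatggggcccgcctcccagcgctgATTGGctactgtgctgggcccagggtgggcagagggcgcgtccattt

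The search covered windows of 300 bases, from 250 before to 50 after a RefSeq start, for 22 of the 26 members, which had 30 windows because some genes have several starts. Fdps, Fdft1, Sqle and Stard4 were not analysed here. TCACNCCAC, the letters of a sterol response element, was present only in the Hmgcs1 window, 137 bases before the start and on the plus strand. It was in 1.24% of all 32851 windows and 1.14% of the 12031 windows of tested genes. CCAAT, the box bound by NF-Y, was present in 70% of the members' windows (21 of 30, in 20 genes). It was in 37.4% of all windows and in 38% of those of tested genes. The E-box CACGTG was in 20% of the members' windows (Hsd17b7, Sc5d, Dhcr7, Scap and Insig1), against 7.15% of all and 10.1% of those of tested genes. TTCNNNGAA, the palindrome that STAT factors bind, was in the windows of Ggps1 and Ebp, 6.67% of the members' windows, against 8.3% of all and 6.87% of those of tested genes. The letters are a description of these windows and do not show binding, and windows of one gene overlap in places. Only these exact letters were searched, so a window without them is not shown to lack an element.

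Levels were compared as normalized CPM, the reads of a gene as a share of its library, scaled by the trimmed-mean factors of edgeR. Differences are log2 fold changes, tested with edgeR's quasi-likelihood test over all 13852 genes with Benjamini-Hochberg adjustment; a gene was called at an adjusted p below 0.05. As a check of the labels, Stat5a had CPM values of 48.2, 36.01 and 45.3 in wt, 11.8, 11.9 and 13.6 in Stat5a-/- and 87.2, 91.7 and 72.2 in Stat5b-/-. Stat5b had CPM values of 107, 103 and 106 in wt, 145, 124 and 156 in Stat5a-/- and 72.3, 58.5 and 59.5 in Stat5b-/-. Each targeted gene was lowest in its own knockout line (-1.80 ± 0.14 (SE), edgeR adjusted p = 4.69e-07, and -0.73 ± 0.11 (SE), edgeR adjusted p = 0.000169), and reads of both remained there; where on the gene these reads lie is not recorded in the counts. A free-text description of the knockout samples calls them wt, whereas their titles and genotype entries name the knockout, and those entries were followed.

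Marker lists of several blood lineages differed between the lines, and their part in the results below was not tested except for the T-cell list. Markers of the B lineage were abundant (summed CPM 5130 to 5349 in wt, 6747 to 7429 in Stat5a-/- and 6099 to 6925 in Stat5b-/-), and all 11 on the list passed the filter. They did not move one way: 6 were called higher and 3 lower in Stat5b-/- against wt, and 7 higher and 2 lower in Stat5a-/- against wt. Rag1, a recombinase subunit of lymphocyte precursors, averaged 64.7 CPM in wt, 0.158 in Stat5a-/- and 0.667 in Stat5b-/-. Il7r was lower in both knockouts (log2 fold changes of -1.10 in Stat5a-/- and -0.43 in Stat5b-/-). Pax5 was lower in Stat5b-/- (-0.39). The summed level of 16 T-cell markers, all of which passed the filter, was 761 to 1055 CPM in wt, 1360 to 1565 in Stat5a-/- and 1751 to 2520 in Stat5b-/-, with no overlap between genotypes. Against wt, 15 of the 16 were called higher in Stat5b-/- and 7 in Stat5a-/-. Of 11 myeloid markers 3 passed the filter (17.4 to 18.8, 13.6 to 15.3 and 19.7 to 22.2 CPM summed over the list). Of 7 erythroid markers 2 did (11.6 to 14.02, 12.4 to 14.8 and 3.09 to 3.81 CPM). No listed marker was at 0 in every library. In bulk RNA, a change in the share of cells of a type and a change in the RNA of each cell cannot be told apart.

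In Stat5b-/- cells, 10 of the 26 genes were lower and 3 were higher than in wt. All 10 that were lower are enzymes: Acat2, Pmvk, Mvd and Idi1 of the mevalonate part, Lss, which makes lanosterol, and Cyp51, Msmo1, Hsd17b7, Sc5d and Dhcr7 after it. The 3 that were higher were the reductases Tm7sf2 and Lbr and the control gene Insig1. Over all tested genes 22% were called lower and 24.2% higher in this comparison (46.2% in either direction), against 38.5% and 11.5% of the members. The members' median log2 fold change was -0.14, against 0.02 over all genes. DESeq2 called 2 members higher and 10 lower. No member passed a 2-fold change, in this comparison or in the others, where 19.1% (Stat5b-/- against wt), 14.2% (Stat5a-/- against wt) and 11.4% (Stat5b-/- against Stat5a-/-) of all genes were called past it.

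In Stat5a-/- cells, 8 of the 26 were higher than in wt and 0 were lower. Higher were Hmgcs1 and Mvk at the start of the pathway, Fdft1 (squalene synthase), the reductases Tm7sf2 and Lbr, Nsdhl, the SREBP escort Scap, and Stard4, which carries sterols between membranes. Among all genes 19.8% were called higher and 16.3% lower (36% in either direction), against 30.8% of the members higher. The members' median was 0.17, against 0.01 over all genes. At an unadjusted p below 0.05, 9 members were higher and 2 lower, and DESeq2 called 8 higher and 0 lower. With 1 library left out at a time, the counts ran from 6 to 8 higher and from 0 to 1 lower.

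Set directly against each other, Stat5b-/- had 12 of the 26 genes lower than Stat5a-/- and 0 higher, where 17.5% of all genes were called lower and 16.4% higher (33.9% in either direction). This direct comparison tests the difference between the knockouts; it shares its libraries with the comparisons against wt. Lower in Stat5b-/- were Acat2, Hmgcs1, Mvd, Fdps, Fdft1, Msmo1, Nsdhl, Hsd17b7, Ebp, Sc5d, Dhcr7 and Stard4, so 11 of the 20 enzymes and none of the 5 control genes. The members' median was -0.32, against 0.02. At an unadjusted p below 0.05, 16 were lower and 0 higher, and DESeq2 called 14 lower and 0 higher.

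**Figure D1:**
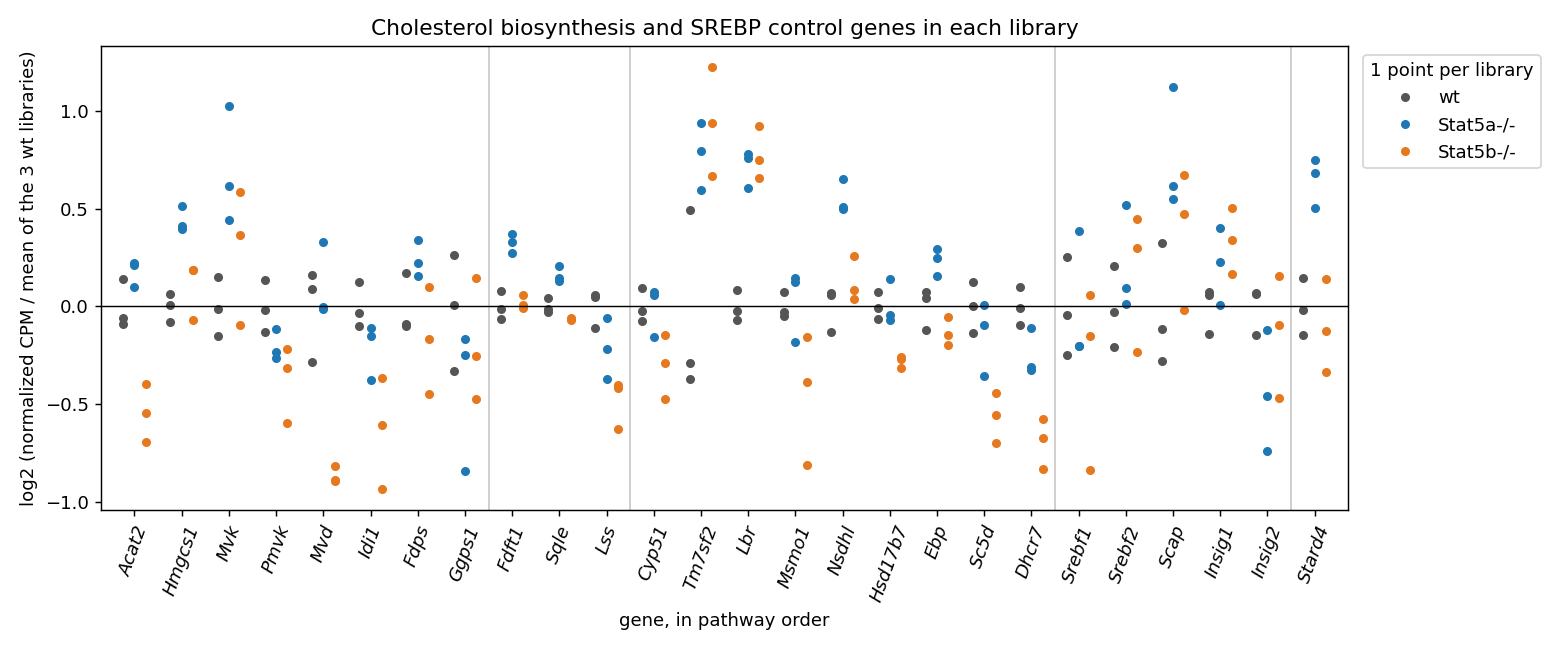
Each point is one library, plotted as log2 of its normalized CPM over the mean of the 3 wt libraries (y axis), for the 26 genes in pathway order (x axis), with wt, Stat5a-/- and Stat5b-/- in separate colours and vertical lines between the mevalonate, squalene and lanosterol, post-lanosterol, SREBP control and sterol transport groups. Mvd, Sc5d and Dhcr7 sat below wt in all Stat5b-/- libraries, Tm7sf2 and Lbr sat above wt in all libraries of both knockouts, and Srebf1 and Srebf2 were spread widely within each genotype.

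With the log2 T-cell marker sum as a covariate, 1 member was called higher and 0 lower in Stat5b-/- against wt, 4 higher and 1 lower in Stat5a-/- against wt, and 3 lower in Stat5b-/- against Stat5a-/-. In that fit 1451 of all genes were called between Stat5b-/- and wt, against 6397 without the covariate. Because the marker sum did not overlap between the genotypes, the 2 cannot be told apart. Of the 10 genes lower in Stat5b-/- against wt without the covariate, 5 had log2 fold changes at least as low with it: Sc5d at -0.92, Idi1 at -0.86, Msmo1 at -0.50, Cyp51 at -0.41 and Hsd17b7 at -0.40. Dhcr7 at -0.40, Mvd, Lss and Acat2 at -0.18 each and Pmvk at 0.15 moved toward or past 0. Exons of the genes that stayed as low were 41.1 to 46.3% GC, and those of the genes that moved were 50.2 to 59.2% GC. In wt and in Stat5a-/- the library with the lowest marker sum had the highest GC trend, which is described below. In Stat5b-/- the library with the highest sum had it. The part of GC content in this split was not tested. The edgeR adjusted p of the 10 ran from 0.102 to 0.828. The members' median log2 fold change minus that of all genes was -0.16 with the covariate and -0.17 without it in Stat5b-/- against wt. It was 0.34 and 0.16 in Stat5a-/- against wt, and -0.25 and -0.34 between the knockouts. Of the 8 higher in Stat5a-/- against wt, Hmgcs1, Mvk, Lbr and Scap stayed called. Fdft1 (0.41, edgeR adjusted p = 0.0903), Tm7sf2 (0.71, 0.274), Nsdhl (0.33, 0.183) and Stard4 (0.45, 0.185) did not. Of the 12 lower in Stat5b-/- against Stat5a-/-, 9 were no longer called (edgeR adjusted p from 0.0502 to 0.333). The 3 that stayed called were Stard4 (-0.91, edgeR adjusted p = 0.0113), Nsdhl (-0.61, edgeR adjusted p = 0.0173) and Mvd (-0.67, edgeR adjusted p = 0.0448). The member that stayed called in both comparisons with wt was Lbr, at log2 fold changes of 1.26 (edgeR adjusted p = 0.00713) in Stat5b-/- and 0.98 (edgeR adjusted p = 0.000873) in Stat5a-/-.

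The Stat5a-/- values moved with the scaling of the libraries. When libraries were scaled by total counts alone, an alternative chosen after seeing the data, the median of all genes moved by -0.14 in Stat5a-/- against wt and by 0.11 in Stat5b-/- against Stat5a-/-. The share of all called genes that were higher went from 54.9% to 38.1% and from 48.3% to 63.6%. Members then numbered 6 higher and 3 lower (Lss, Dhcr7 and Insig2) in Stat5a-/- and 5 lower in Stat5b-/- against Stat5a-/-. The distance of their median from that of all genes was 0.16 and -0.34 under both scalings. A change of scaling moves all genes by nearly the same amount, so this distance hardly changes by construction.

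The first reactions join acetyl-CoA units into mevalonate and turn it into isoprenoid diphosphates. Of 8 genes for these steps, 4 fell in Stat5b-/- against wt (50%, against 22% of all genes), and 2 rose in Stat5a-/- against wt (25%, near the 19.8% of all genes). The direct comparison of the knockouts called 4, each with less in Stat5b-/- (50%, against 17.5%). Acat2 (ENSMUSG00000023832.13, chr17:12942890-12960747, minus strand; build GRCm38, as are the positions below), the cytosolic thiolase that makes acetoacetyl-CoA, had CPM values of 35.5, 30.2 and 30.9 in wt, 37.3, 34.5 and 37.6 in Stat5a-/- and 19.9, 22.1 and 24.4 in Stat5b-/-. All Stat5b-/- libraries were below all others, at a log2 fold change of -0.54 ± 0.12 (SE), edgeR adjusted p = 0.00196, against wt and -0.72 ± 0.12 (SE), edgeR adjusted p = 0.000391, against Stat5a-/-. Acat2 has the close paralog Acat3, with which it can share reads.

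Hmgcs1 (ENSMUSG00000093930.1, chr13:119690462-119708086, plus strand), which condenses acetoacetyl-CoA with acetyl-CoA to HMG-CoA, had CPM values of 77.4, 80.5 and 72.9 in wt, 109.8, 101 and 102 in Stat5a-/- and 73.4, 87.5 and 87.6 in Stat5b-/-. Its Stat5a-/- libraries lay above all others, and it rose at a log2 fold change of 0.44 ± 0.10 (SE), edgeR adjusted p = 0.00369, in Stat5a-/- against wt, while Stat5b-/- overlapped wt (0.11 ± 0.10 (SE), edgeR adjusted p = 0.414). The direct difference between the knockouts was -0.33 ± 0.10 (SE), edgeR adjusted p = 0.0213. This call was lost under 5 of 20 alternatives, among them without Stat5a-/- replicate 1 and without Stat5b-/- replicate 1 (edgeR adjusted p = 0.0773 and 0.0675).

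Mvk (ENSMUSG00000041939.14, chr5:114444269-114460591, plus strand), the kinase of mevalonate, had CPM values of 16.5, 13.4 and 14.7 in wt, 22.8, 20.2 and 30.3 in Stat5a-/- and 22.3, 19.1 and 13.9 in Stat5b-/-. Stat5a-/- lay above wt, with a log2 fold change of 0.71 ± 0.19 (SE), edgeR adjusted p = 0.00852, and Stat5b-/- overlapped both other lines (0.32 ± 0.19 (SE), edgeR adjusted p = 0.187, against wt, a comparison called under 3 of 20 alternatives, among them without Stat5b-/- replicate 3, edgeR adjusted p = 0.0368). Pmvk (ENSMUSG00000027952.16, chr3:89454541-89469013, plus strand), which adds the second phosphate, had CPM values of 14.6, 12.1 and 13.1 in wt, 11.1, 11.3 and 12.3 in Stat5a-/- and 8.78, 10.7 and 11.4 in Stat5b-/-. Its fall in Stat5b-/- was -0.37 ± 0.14 (SE), edgeR adjusted p = 0.0473, close to the limit; 8 of 20 alternatives lost it and another, the T-cell marker sum, turned its sign. The 8 included leaving out wt replicate 1 or 3 or Stat5b-/- replicate 1 or 2 (edgeR adjusted p from 0.0735 to 0.141). In Stat5a-/- against wt it was called lower with the GC offset (-0.37, edgeR adjusted p = 0.0337).

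Mvd (ENSMUSG00000006517.5, chr8:122433601-122443422, minus strand), the decarboxylase that yields isopentenyl diphosphate, showed the largest fall among the 26 genes. Its CPM values were 34.7, 25.6 and 33.04 in wt, 31.1, 30.8 and 39.1 in Stat5a-/- and 16.8, 17.6 and 16.8 in Stat5b-/-, and the 3 Stat5b-/- libraries lay close together below all 6 others. The log2 fold change was -0.86 ± 0.14 (SE), edgeR adjusted p = 0.000258, against wt and -0.98 ± 0.14 (SE), edgeR adjusted p = 0.000175, against Stat5a-/-. Its Stat5a-/- values overlapped wt (0.11 ± 0.14 (SE), edgeR adjusted p = 0.558).

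Idi1 (ENSMUSG00000058258.14, chr13:8885501-8892451, plus strand), the isomerase of that product, had CPM values of 5.14, 6.01 and 5.37 in wt, 5.10, 4.96 and 4.24 in Stat5a-/- and 2.88, 3.62 and 4.27 in Stat5b-/-, among the lowest of the members, from 42 to 119 reads a library. It fell in Stat5b-/- at a log2 fold change of -0.62 ± 0.18 (SE), edgeR adjusted p = 0.0139, a call lost without wt replicate 2 (edgeR adjusted p = 0.0533) and with the T-cell marker sum. Its difference from Stat5a-/- was called with the GC offset, alone and with the replicate block (edgeR adjusted p = 0.0127 and 0.0271). Fdps (ENSMUSG00000059743.12, chr3:89093588-89101959, minus strand), which builds farnesyl diphosphate, had CPM values of 25.6, 25.9 and 30.96 in wt, 30.6, 34.8 and 32.01 in Stat5a-/- and 20.2, 24.5 and 29.5 in Stat5b-/-. Stat5b-/- lay below Stat5a-/- at a log2 fold change of -0.40 ± 0.14 (SE), edgeR adjusted p = 0.0479, a call lost under 12 of 20 alternatives, among them leaving out any library but Stat5b-/- replicate 3 (edgeR adjusted p from 0.0519 to 0.149). Ggps1 (ENSMUSG00000021302.9, chr13:14052449-14063401, minus strand), which adds a further isoprene unit on a branch toward protein prenylation, had CPM values of 23.1, 34.9 and 29.2 in wt, 25.9, 24.5 and 16.2 in Stat5a-/- and 24.4, 20.9 and 32.1 in Stat5b-/-; the genotypes overlapped and it was not called in any comparison (edgeR adjusted p from 0.166 to 0.508). It was called lower in Stat5a-/- against wt under 2 of 20 alternatives, no filter on low counts and the T-cell marker sum.

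**Figure D2:**
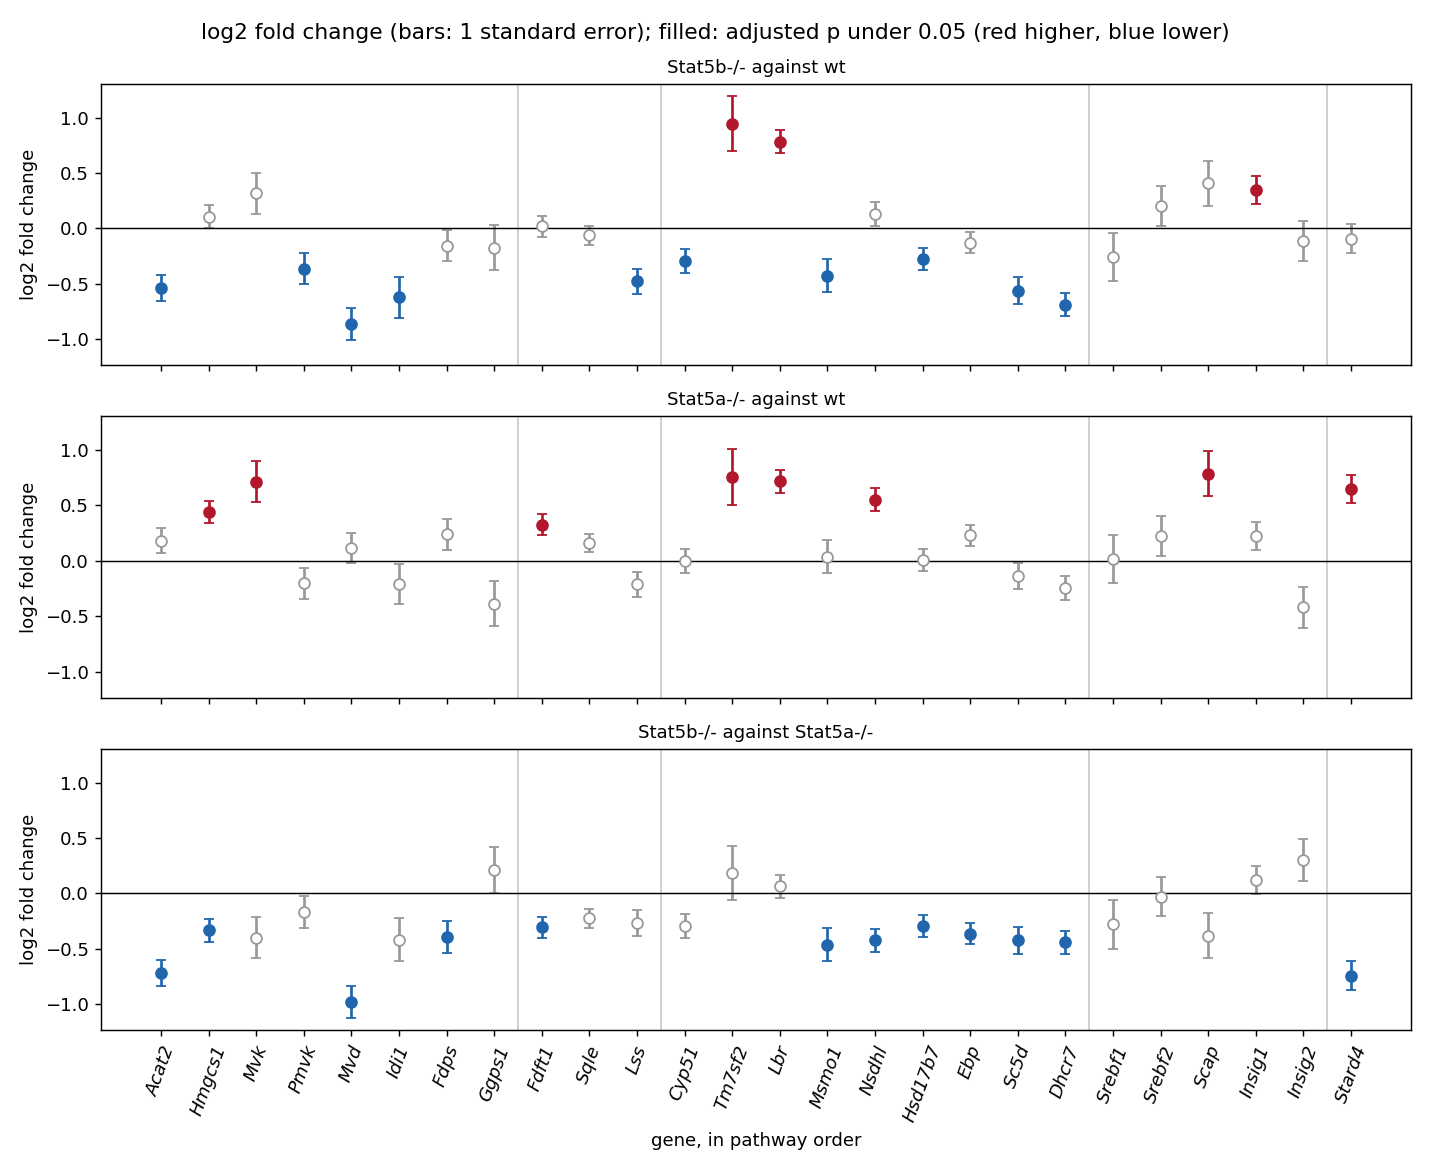
Each panel shows one comparison, with the log2 fold change of the 26 genes (y axis) in pathway order (x axis), bars of 1 standard error, and filled points for an edgeR adjusted p below 0.05, red for higher and blue for lower. The filled points number 10 below and 3 above 0 for Stat5b-/- against wt, 8 above for Stat5a-/- against wt, and 12 below for Stat5b-/- against Stat5a-/-.

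Farnesyl diphosphate is then joined to squalene, oxidized and closed to lanosterol. Fdft1 (ENSMUSG00000021273.9, chr14:63145153-63177793, minus strand), squalene synthase, had CPM values of 41.1, 37.1 and 38.5 in wt, 48.9, 47.03 and 50.2 in Stat5a-/- and 39.01, 38.6 and 40.5 in Stat5b-/-. The Stat5a-/- libraries lay above all others, at 0.33 ± 0.09 (SE), edgeR adjusted p = 0.0163, against wt, and Stat5b-/- differed from Stat5a-/- at a log2 fold change of -0.31 ± 0.10 (SE), edgeR adjusted p = 0.0246. The first call was lost under 7 of 20 alternatives, among them without wt replicate 2 or 3 or Stat5a-/- replicate 1 or 3 (edgeR adjusted p from 0.0685 to 0.0742). The second was lost under 8, among them without Stat5a-/- replicate 1 or 3 or Stat5b-/- replicate 2 (from 0.0706 to 0.0732). Fdft1 shares 18.3% of its exon bases with Ctsb on the opposite strand.

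Sqle (ENSMUSG00000022351.14, chr15:59315077-59331192, plus strand), the epoxidase often named as a rate-limiting step, had CPM values of 168, 176 and 169.7 in wt, 198, 189.9 and 187 in Stat5a-/- and 164, 165 and 163 in Stat5b-/-. The 3 lines did not overlap, in the order Stat5a-/-, wt and Stat5b-/-, and no comparison passed the adjusted limit (-0.23 ± 0.08 (SE), edgeR adjusted p = 0.0544, for Stat5b-/- against Stat5a-/-). That comparison passed it under 4 of 20 alternatives, which were DESeq2 (adjusted p = 0.00796), the GC offset, TMM without chromosomes 17, 18 and 19, and RLE scaling (edgeR adjusted p from 0.0208 to 0.0456). Lss (ENSMUSG00000033105.12, chr10:76531588-76557138, plus strand), the cyclase that makes lanosterol, had CPM values of 49.05, 48.7 and 43.6 in wt, 40.6, 36.5 and 45.2 in Stat5a-/- and 35.3, 35.6 and 30.5 in Stat5b-/-. Stat5b-/- lay below both other lines, and its fall against wt was -0.48 ± 0.11 (SE), edgeR adjusted p = 0.00404; against Stat5a-/- it was -0.27 ± 0.12 (SE), edgeR adjusted p = 0.0928. The fall against wt was lost with the T-cell marker sum. With total counts Lss was called lower in Stat5a-/- against wt (-0.35, edgeR adjusted p = 0.0231).

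After lanosterol, methyl groups are removed and double bonds are moved or reduced. Of 9 genes, 5 fell and 2 rose in Stat5b-/- against wt (55.6% and 22.2%, against 22% and 24.2% of all genes). In Stat5a-/- against wt 3 rose (33.3%, against 19.8%). The direct comparison of the knockouts called 6, each with less in Stat5b-/- (66.7%, against 17.5%). Cyp51 (ENSMUSG00000001467.5, chr5:4081145-4104746, minus strand), the lanosterol demethylase, had CPM values of 116, 125 and 112 in wt, 124, 122 and 106 in Stat5a-/- and 84.7, 96.1 and 106 in Stat5b-/-. Stat5b-/- was lower than wt at a log2 fold change of -0.30 ± 0.11 (SE), edgeR adjusted p = 0.0402, a call lost under 7 of 20 alternatives, among them without any one of the wt libraries or without Stat5b-/- replicate 1 or 2 (edgeR adjusted p from 0.0605 to 0.129). Against Stat5a-/- it was -0.29 ± 0.11 (SE), edgeR adjusted p = 0.056, and it passed the limit under 7 of 20 alternatives, among them without Stat5a-/- replicate 3 or Stat5b-/- replicate 3 (edgeR adjusted p = 0.0316 and 0.0268).

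Lbr and Tm7sf2 both encode reductases for the sterol that leaves Cyp51; Lbr is also an inner nuclear membrane protein that binds lamin B and chromatin. Lbr (ENSMUSG00000004880.11, chr1:181815335-181843046, minus strand) had CPM values of 258, 232 and 240 in wt, 418, 371 and 413 in Stat5a-/- and 409.5, 462 and 384 in Stat5b-/-. All 6 knockout libraries lay above all wt libraries, with log2 fold changes of 0.78 ± 0.10 (SE), edgeR adjusted p = 3.87e-05, in Stat5b-/- and 0.72 ± 0.10 (SE), edgeR adjusted p = 9.55e-05, in Stat5a-/-, and the knockouts overlapped each other (0.06 ± 0.10 (SE), edgeR adjusted p = 0.665). The calls of Lbr against wt held under all 20 alternatives.

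Tm7sf2 (ENSMUSG00000024799.14, chr19:6062821-6068373, minus strand) had CPM values of 1.97, 3.59 and 2.08 in wt, 3.85, 4.88 and 4.42 in Stat5a-/- and 4.87, 5.95 and 4.04 in Stat5b-/-, from 31 to 87 reads a library. Knockout values lay above wt, with log2 fold changes of 0.94 ± 0.25 (SE), edgeR adjusted p = 0.00707, in Stat5b-/- and 0.76 ± 0.25 (SE), edgeR adjusted p = 0.0321, in Stat5a-/-. The Stat5a-/- call was lost under 7 of 20 alternatives: without wt replicate 1 or 3 or Stat5a-/- replicate 2 or 3 (edgeR adjusted p from 0.0694 to 0.124), with the GC offset (0.0771), with total counts (0.0657) and with the T-cell marker sum (0.274). The Stat5b-/- call was lost with the T-cell marker sum (edgeR adjusted p = 0.481). Per length, Lbr was far above Tm7sf2, with 152 ± 8.66 against 2.16 ± 0.737 TPM (reads per exon length as a share of the library, SD, n = 3) in wt.

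Msmo1, Nsdhl and Hsd17b7 act one after another to remove further methyl groups. Msmo1 (ENSMUSG00000031604.10, chr8:64718139-64733792, minus strand), the oxidase, had CPM values of 115, 125 and 117 in wt, 129.8, 132 and 105 in Stat5a-/- and 67.9, 91.2 and 107 in Stat5b-/-. It was lower in Stat5b-/- at a log2 fold change of -0.43 ± 0.15 (SE), edgeR adjusted p = 0.0301, against wt, although Stat5b-/- overlapped Stat5a-/-, and -0.46 ± 0.15 (SE), edgeR adjusted p = 0.0279, against Stat5a-/-. The first call was lost under 5 of 20 alternatives, among them without wt replicate 2 or 3 or Stat5b-/- replicate 1 or 2 (edgeR adjusted p from 0.0617 to 0.0802). The second was lost under 7, among them without Stat5a-/- replicate 1 or 2 or Stat5b-/- replicate 1 or 2 (from 0.0591 to 0.0805).

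Nsdhl (ENSMUSG00000031349.4, chrX:72918557-72958514, plus strand), the dehydrogenase, had CPM values of 42.1, 48.03 and 48.4 in wt, 65.3, 72.5 and 65.6 in Stat5a-/- and 49.03, 47.4 and 55.1 in Stat5b-/-. Its Stat5a-/- libraries lay above all others, at 0.55 ± 0.10 (SE), edgeR adjusted p = 0.00101, against wt and with Stat5b-/- lower at a log2 fold change of -0.43 ± 0.11 (SE), edgeR adjusted p = 0.00759. The rise against wt was lost with the T-cell marker sum (0.33, edgeR adjusted p = 0.183). Hsd17b7 (ENSMUSG00000026675.12, chr1:169949535-169969241, minus strand), the reductase, had CPM values of 45.8, 50.4 and 47.6 in wt, 52.8, 45.6 and 46.4 in Stat5a-/- and 39.7, 40.05 and 38.5 in Stat5b-/-. Stat5b-/- was below both other lines at a log2 fold change of -0.28 ± 0.10 (SE), edgeR adjusted p = 0.0343, against wt and -0.29 ± 0.10 (SE), edgeR adjusted p = 0.0391, against Stat5a-/-. The first call was lost under 7 of 20 alternatives, among them without wt replicate 2 or 3 or Stat5b-/- replicate 2 or 3 (edgeR adjusted p from 0.0679 to 0.113). The second was lost under 12, among them leaving out any library but wt replicate 1 and Stat5a-/- replicate 2 (from 0.0502 to 0.17).

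The closing steps are an isomerase (Ebp), a desaturase (Sc5d) and the reductase that yields cholesterol (Dhcr7). Ebp (ENSMUSG00000031168.14, chrX:8185329-8193512, minus strand) had CPM values of 116, 103 and 118 in wt, 125, 133 and 138 in Stat5a-/- and 98.05, 108 and 102 in Stat5b-/-. Stat5a-/- lay above wt without passing the limit (0.23 ± 0.09 (SE), edgeR adjusted p = 0.0727). It passed under 2 of 20 alternatives, TMM without chromosomes 17, 18 and 19 (0.28, edgeR adjusted p = 0.0331) and the GC offset (edgeR adjusted p = 0.0377). Stat5b-/- was below Stat5a-/- at a log2 fold change of -0.36 ± 0.09 (SE), edgeR adjusted p = 0.0102, a call lost with total counts and with the T-cell marker sum (edgeR adjusted p = 0.0588 and 0.333). Sc5d (ENSMUSG00000032018.14, chr9:42251595-42264256, minus strand) had CPM values of 86.5, 104 and 95.5 in wt, 89.2, 95.8 and 74.5 in Stat5a-/- and 58.6, 64.8 and 70.1 in Stat5b-/-. Its Stat5b-/- libraries were below all others, at a log2 fold change of -0.56 ± 0.12 (SE), edgeR adjusted p = 0.00175, against wt and -0.42 ± 0.12 (SE), edgeR adjusted p = 0.0153, against Stat5a-/-, the latter lost without Stat5a-/- replicate 2 (edgeR adjusted p = 0.0614), with total counts and with the T-cell marker sum.

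Dhcr7 (ENSMUSG00000058454.15, chr7:143823145-143848410, plus strand) had CPM values of 261, 228 and 242 in wt, 195, 197 and 226 in Stat5a-/- and 164, 153 and 137 in Stat5b-/-. The 3 lines did not overlap, with wt highest and Stat5b-/- lowest. The fall in Stat5b-/- was -0.69 ± 0.10 (SE), edgeR adjusted p = 0.000144, against wt and -0.44 ± 0.10 (SE), edgeR adjusted p = 0.00589, against Stat5a-/-. The Stat5a-/- difference from wt was -0.25 ± 0.10 (SE), edgeR adjusted p = 0.0854, and it passed the limit under 4 of 20 alternatives, among them without Stat5a-/- replicate 3 (log2 fold change -0.35, edgeR adjusted p = 0.0333) and with an offset for GC content (-0.32, edgeR adjusted p = 0.00316).

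**Figure D3:**
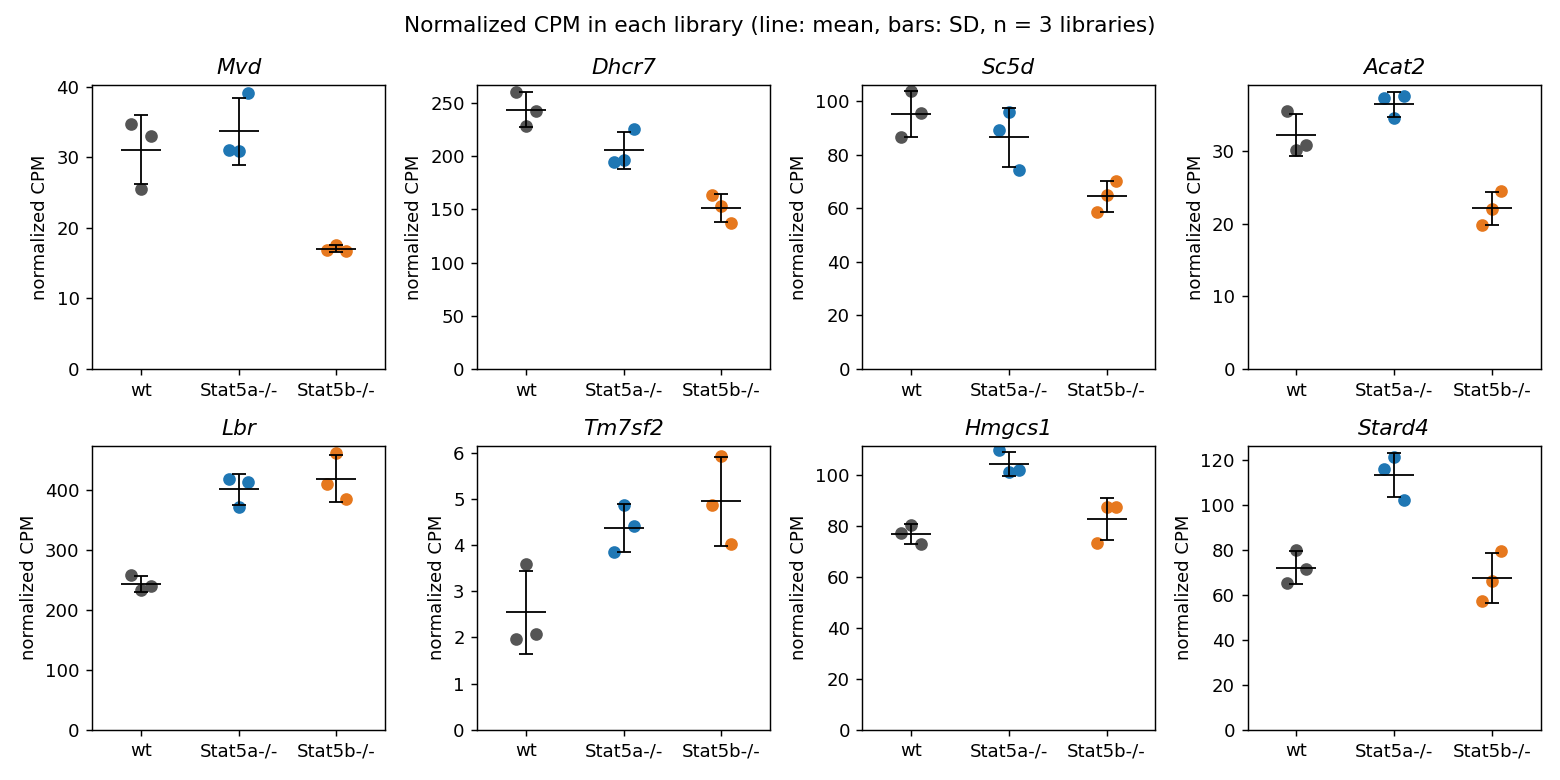
Normalized CPM (y axes, each from 0) in the 9 libraries for Mvd, Dhcr7, Sc5d, Acat2, Lbr, Tm7sf2, Hmgcs1 and Stard4, grouped by line (x axes), with 1 point per library, a line at the mean and bars of 1 SD (n = 3). Stat5b-/- points lie below all others for the first 4 genes, wt points lie below all others for Lbr and Tm7sf2, and Stat5a-/- points lie above all others for Hmgcs1 and Stard4.

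Summed over the 20 enzymes, CPM ranged from 1504 to 1533 in wt, from 1709 to 1763 in Stat5a-/- and from 1403 to 1514 in Stat5b-/-. Without Lbr, left out after its values were seen, the sums were 1264 to 1279, 1322 to 1345 and 994 to 1073. The Stat5b-/- range overlapped wt with Lbr and lay below it without Lbr. In wt, the least abundant enzymes per length were Tm7sf2 and Idi1 (4.66 ± 0.345 TPM, SD, n = 3), and the most abundant were Lbr, Ebp (144 ± 12.7) and Dhcr7 (124 ± 8.90).

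The 5 control genes are those that carry, hold back or form the SREBP factors. In each comparison with wt 1 of the 5 rose (20%, near the 24.2% of all genes called higher in Stat5b-/- and the 19.8% in Stat5a-/-) and 4 were not called. Between the knockouts all 5 were not called. Srebf1 (ENSMUSG00000020538.15, chr11:60199089-60222581, minus strand), which encodes the SREBP forms that act more on fatty acid genes, had CPM values of 285, 202 and 232 in wt, 208, 208 and 313 in Stat5a-/- and 249.5, 216 and 134 in Stat5b-/-. Srebf2 (ENSMUSG00000022463.7, chr15:82147266-82205376, plus strand), whose product acts more on cholesterol genes, had CPM values of 576, 432 and 490.3 in wt, 533, 504 and 717 in Stat5a-/- and 682, 614 and 425 in Stat5b-/-. The genotypes overlapped for both, and neither was called in any comparison (edgeR adjusted p from 0.346 to 0.956 for Srebf1 and from 0.359 to 0.921 for Srebf2).

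The wide spread of both genes within a line was set beside the base composition trend of the libraries. That trend is the correlation, over tested genes, of a library's deviation from its group mean with gene GC content, and it was 0.479, -0.495 and -0.0583 in wt replicates 1 to 3, -0.354, -0.322 and 0.54 in Stat5a-/- and 0.328, 0.158 and -0.458 in Stat5b-/-. In each line the library with the highest value of this trend had the highest Srebf1 and Srebf2, whose exons are 59.4% and 57.1% GC. Scap, Mvk, Dhcr7 and Insig1 were also highest there (55.3%, 58.5%, 52.3% and 47.1% GC). Below the highest library the order did not always hold: in Stat5a-/- Srebf2 was 533 CPM at a trend of -0.354 and 504 at -0.322. The part of GC content in these levels was not tested beyond the fit with an offset for it, in which neither Srebf1 nor Srebf2 was called. With the offset, log2 fold changes in Stat5a-/- against wt went from 0.79 to 0.61 in Scap and from 0.71 to 0.52 in Mvk. They went from -0.25 to -0.32 in Dhcr7 and from 0.22 to 0.27 in Insig1.

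Scap (ENSMUSG00000032485.14, chr9:110333288-110384950, plus strand), at 55.3% GC, had CPM values of 171, 113 and 126 in wt, 209.6, 200 and 297 in Stat5a-/- and 218, 189.7 and 135 in Stat5b-/-. Stat5a-/- lay above wt at a log2 fold change of 0.79 ± 0.20 (SE), edgeR adjusted p = 0.00781, a call that held under all 20 alternatives. In Stat5b-/- the value was 0.41 ± 0.20 (SE), edgeR adjusted p = 0.117, and it was called under 5 of 20 alternatives, among them the GC offset (0.39, edgeR adjusted p = 0.0244), without wt replicate 1 (edgeR adjusted p = 0.0369) and without Stat5b-/- replicate 3 (edgeR adjusted p = 0.0209). Stat5b-/- was called below Stat5a-/- with no filter on low counts (-0.38, edgeR adjusted p = 0.0138). Scap shares 13.2% of its exon bases with 5830462I19Rik on the opposite strand.

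Insig1 (ENSMUSG00000045294.11, chr5:28071363-28078662, plus strand), itself a target of SREBP, had CPM values of 50.1, 43.2 and 49.7 in wt, 55.9, 47.9 and 63.02 in Stat5a-/- and 67.5, 60.4 and 53.5 in Stat5b-/-. Stat5b-/- lay above wt, at 0.34 ± 0.13 (SE), edgeR adjusted p = 0.0405, the only called control gene in that comparison. The call was lost under 13 of 20 alternatives, among them DESeq2 (adjusted p = 0.0576), RLE scaling (edgeR adjusted p = 0.0609) and leaving out any library but Stat5a-/- replicate 3 and Stat5b-/- replicate 3 (edgeR adjusted p from 0.0503 to 0.203). Insig2 (ENSMUSG00000003721.14, chr1:121304353-121332589, minus strand) had CPM values of 13.2, 15.3 and 15.4 in wt, 10.6, 13.4 and 8.75 in Stat5a-/- and 10.6, 13.7 and 16.3 in Stat5b-/-; the genotypes overlapped and it was not called (edgeR adjusted p from 0.0963 to 0.619). Of 20 alternatives, 4 called it lower in Stat5a-/- against wt (without Stat5a-/- replicate 2 or Stat5b-/- replicate 1, with no filter on low counts and with total counts, edgeR adjusted p from 0.0326 to 0.0471).

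**Figure D4:**
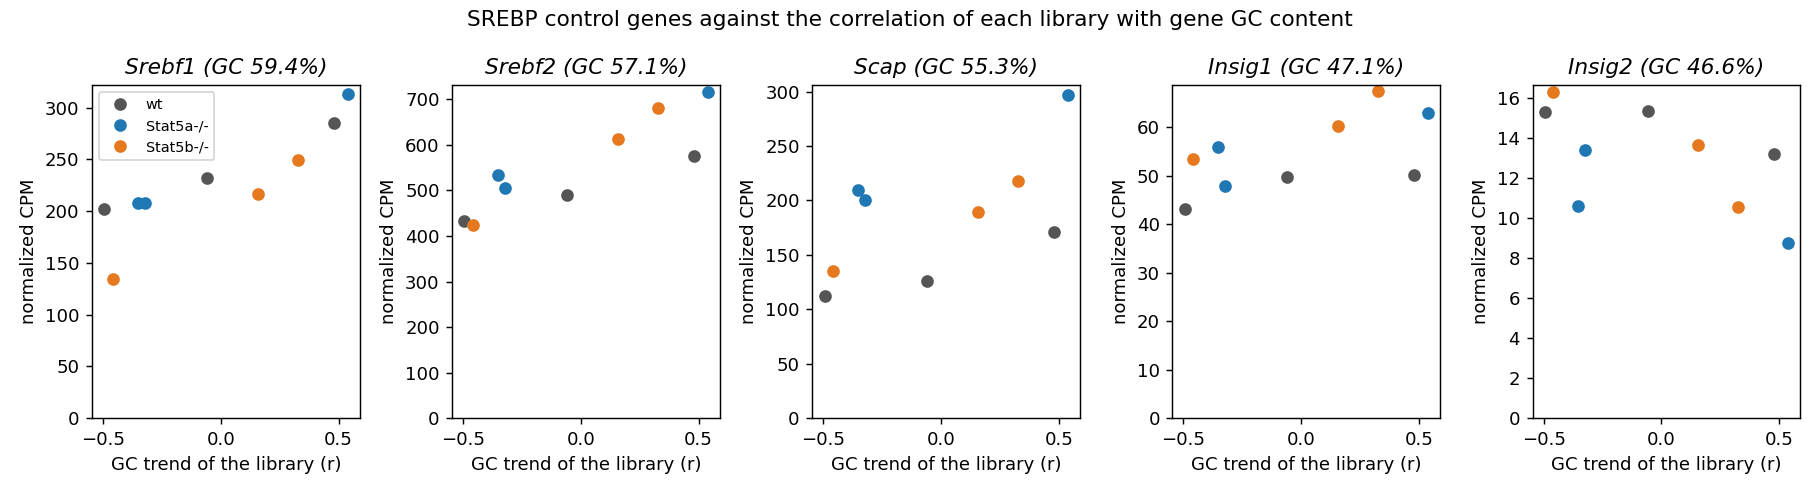
Normalized CPM (y axes, each from 0) of Srebf1, Srebf2, Scap, Insig1 and Insig2 against the GC trend of each library (x axes, Pearson r over tested genes), with 1 point per library coloured by line. Within each line Srebf1 and Srebf2 are highest in the library with the highest trend, and Scap is higher in Stat5a-/- than in wt.

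Stard4 (ENSMUSG00000024378.9, chr18:33199355-33213862, minus strand), the sterol carrier, had CPM values of 65.1, 79.7 and 71.2 in wt, 116, 121 and 102 in Stat5a-/- and 57.1, 66.1 and 79.3 in Stat5b-/-. The Stat5a-/- libraries lay above all others, at 0.65 ± 0.13 (SE), edgeR adjusted p = 0.00143, against wt, and Stat5b-/- was lower than Stat5a-/- at a log2 fold change of -0.74 ± 0.13 (SE), edgeR adjusted p = 0.000708, while it overlapped wt (-0.09 ± 0.13 (SE), edgeR adjusted p = 0.578). The difference between the knockouts was called under all 20 alternatives, and the rise against wt under all but the T-cell marker sum (0.45, edgeR adjusted p = 0.185).

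The chromosome of Stard4 is one of 3 on which genes on the whole were higher in Stat5a-/- than in wt. The median log2 fold change of tested genes was 0.53 on chromosome 17, 0.43 on chromosome 18 and 0.41 on chromosome 19, where 56.1%, 54.6% and 47.6% of genes were called higher, and it lay between -0.10 and 0.09 on the others. In Stat5b-/- against Stat5a-/- the medians there were -0.42, -0.48 and -0.43. Members on these chromosomes were Acat2 (17), Stard4 (18) and Tm7sf2 (19), so their Stat5a-/- values of 0.18, 0.65 and 0.76 stand beside chromosome medians of 0.53, 0.43 and 0.41. The part of this shift in their values was not tested.

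Genes around the pathway were counted in the same fit, and their counts stand beside the shares over all genes: 24.2% higher and 22% lower in Stat5b-/- against wt, 19.8% and 16.3% in Stat5a-/- against wt, and 16.4% and 17.5% between the knockouts. Of 12 genes of fatty acid synthesis, which SREBP also induces, 7 (58.3%) were lower in Stat5b-/- against wt, 3 (25%) were higher and 2 (16.7%) lower in Stat5a-/- against wt, and 7 (58.3%) were lower in the direct comparison of the knockouts. The stearoyl-CoA desaturase gene Scd1 had CPM values of 596, 561 and 591 in wt, 1979, 1901 and 2172 in Stat5a-/- and 676, 709 and 550 in Stat5b-/-; it was more than 2-fold above wt in all Stat5a-/- libraries (1.79 ± 0.12 (SE), edgeR adjusted p = 6.03e-08) and overlapped wt in Stat5b-/-. Scd2, a further desaturase gene, had CPM values of 1551, 1428 and 1478 in wt, 1880, 1845 and 2068 in Stat5a-/- and 792, 814 and 673 in Stat5b-/-, with Stat5b-/- below all others (-0.97 ± 0.11 (SE), edgeR adjusted p = 8.33e-06, against wt). Gpam, the first enzyme of glycerolipid synthesis, had CPM values of 64.6, 61.97 and 65.8 in wt, 60.4, 56.5 and 62.4 in Stat5a-/- and 26.9, 29.2 and 22.7 in Stat5b-/- and was lower in Stat5b-/- (-1.28 ± 0.11 (SE), edgeR adjusted p = 8.56e-07, against wt). These 3 genes lie on chromosome 19 with Fads1 and Fads2, and the 5 are among the 7 lower in Stat5b-/- against Stat5a-/-. On that chromosome 50.1% of tested genes were lower in that comparison. The other 2 of the 7 were Acly and Elovl5. Of the 3 higher in Stat5a-/- against wt, Scd1 and Scd2 lie there, where 47.6% of genes were higher. In Stat5b-/- against wt 24.2% of the chromosome's genes were lower, and 4 of the 7 lower genes (Scd2, Fads1, Fads2 and Gpam) lie on it. The part of the chromosome in these counts was not tested.

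Of 11 genes of sterol uptake and storage, 3 (27.3%) were higher and 4 (36.4%) lower in Stat5b-/- against wt, 2 (18.2%) higher and 2 (18.2%) lower in Stat5a-/-, and 1 (9.09%) higher and 3 (27.3%) lower between the knockouts. Vldlr, a lipoprotein receptor, had 452, 607 and 554 reads in the wt libraries, 2, 1 and 0 in Stat5a-/- and 2, 1 and 0 in Stat5b-/-. Soat1, which esterifies cholesterol for storage, had CPM values of 36.5, 39.4 and 43.5 in wt, 70.97, 65.9 and 61.8 in Stat5a-/- and 99.8, 97.2 and 108 in Stat5b-/-, rising in both knockouts (1.35 ± 0.10 (SE), edgeR adjusted p = 2.87e-07, in Stat5b-/- and 0.73 ± 0.10 (SE), edgeR adjusted p = 9.32e-05, in Stat5a-/-). Tmem97, a sterol-responsive protein that binds NPC1, had CPM values of 114, 96.3 and 98.9 in wt, 84.7, 107 and 91.2 in Stat5a-/- and 47.2, 46.7 and 46.2 in Stat5b-/-, with Stat5b-/- below all others (-1.14 ± 0.11 (SE), edgeR adjusted p = 2.85e-06, against wt).

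Of 7 genes of the LXR and efflux list, 4 passed the filter, of which 3 were higher in Stat5b-/- against wt, 1 was higher in Stat5a-/- against wt, and 2 were higher and 1 lower between the knockouts. Abca1, a cholesterol exporter, had CPM values of 2.85, 4.09 and 4.68 in wt, 6.29, 6.51 and 5.41 in Stat5a-/- and 11.8, 6.77 and 11.96 in Stat5b-/- and rose in Stat5b-/- (1.38 ± 0.24 (SE), edgeR adjusted p = 0.000364). Abcg1, another exporter, on chromosome 17, had CPM values of 29.9, 30.8 and 34.8 in wt, 83.5, 84.7 and 94.7 in Stat5a-/- and 40.6, 30.7 and 38.2 in Stat5b-/- and rose in Stat5a-/- (1.46 ± 0.12 (SE), edgeR adjusted p = 7.28e-07). Among 9 genes of SREBP proteolysis and sterol-regulated degradation, 1 (11.1%) was higher and 2 (22.2%) lower in Stat5b-/-, 2 and 2 (22.2% each) in Stat5a-/-, and 2 (22.2%) and 4 (44.4%) between the knockouts. Rnf145, a ubiquitin ligase that acts on SCAP, had CPM values of 69.4, 68.03 and 74.5 in wt, 91.2, 90.97 and 100.4 in Stat5a-/- and 144, 145 and 147 in Stat5b-/-, with the 3 lines apart and Stat5b-/- highest (1.04 ± 0.09 (SE), edgeR adjusted p = 8.86e-07, against wt and 0.63 ± 0.09 (SE), edgeR adjusted p = 0.000154, against Stat5a-/-). Of 13 genes of isoprenoid use, 1 (7.69%) was higher and 2 (15.4%) lower in each comparison with wt, and 3 (23.1%) were lower in the direct comparison. The shares against wt were below those over all genes, although the 15.4% lower in Stat5a-/- was near the 16.3% of all genes.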

How the data were processed

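Per the labels and the methods of the study, the authors trimmed single-end reads of 50 bp with Trimmomatic, mapped them with STAR and counted them to union gene models with featureCounts 1.5.1 (GENCODE M13, GRCm38), and the deposited values are raw read counts per gene. Per the file headers, the counting command set no strand option and none for reads with several alignments or several genes, which featureCounts then leaves out. In GENCODE M21, 11 of the 26 members share exon bases with another gene, from 1.17% of them in Srebf1 (Mir6922) to 26.7% in Fdps (Gm43738), including 12.1% in Hmgcs1, 12.1% in Tm7sf2 and 9.24% in Lbr, and such reads are lost or cannot be told apart by strand. Names for 50376 of 50686 genes and GC content came from GENCODE M21, and gene positions and lengths came from the count files (GENCODE M13). The 9 libraries held 11948136 to 19016396 counts, and replicates differed by more than sampling noise (chi-square per degree of freedom 4.89 to 30.5).

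edgeR 4.0.16 in R 4.3.3 was used with filterByExpr, TMM scaling and the quasi-likelihood test on all 9 libraries, with Benjamini-Hochberg adjustment over 13852 genes and a limit of 0.05. Each standard error was taken as the size of the log2 fold change divided by the root of its F value. TPM used union exon lengths. The members and gene lists were chosen with earlier results of these data known. All 26 members are named, together with, from each further list, at most 3 genes called with a change over 2-fold in any comparison, largest first, and Stat5a and Stat5b. Promoters came from RefSeq (GRCm38.p6). The alternatives were RLE scaling, TMM without chromosomes 17, 18 and 19, DESeq2 1.42.0, no count filter, a minimum mean count of 10, fits of 2 genotypes at a time, a limit of 0.1, the replicate block, a GC offset (loess span 0.5), both, the T-cell marker sum, each library left out, and, added after seeing the data, total counts. The scripts were tested on simulated data.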

Additional observations from a re-analysis of the deposited data

How the results depend on the processing

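Each of the 78 member results (26 genes in 3 comparisons) was recomputed under 20 alternatives, and the counts of members under 21. The count of members lower in Stat5a-/- against wt, 0 in the report, was 2 with no filter on low counts, 2 at an adjusted p below 0.1, 2 with the GC offset, 1 with the replicate block and GC offset together, 1 with the T-cell marker sum and 3 with total counts only. The count higher in Stat5b-/- against wt, 3 in the report, was 5 with the GC offset, 5 with the replicate block and GC offset and 1 with the T-cell marker sum. The T-cell marker sum also left 0 of 10 lower in Stat5b-/- against wt, 4 of 8 higher in Stat5a-/- and 3 of 12 lower in Stat5b-/- against Stat5a-/-, and turned Pmvk in Stat5b-/- to a log2 fold change of 0.15, while 5 of those 10 genes kept folds at least as low (Sc5d, Idi1, Msmo1, Cyp51 and Hsd17b7, from -0.92 to -0.40). Those 5 genes have the lowest exon GC content of the 10, and the part of GC content in this was not tested. Total counts left 5 of the 12 lower in Stat5b-/- against Stat5a-/-. Over the 9 fits that leave out a library, the counts ranged from 2 to 5 higher and 6 to 10 lower in Stat5b-/- against wt (5 without Stat5b-/- replicate 3, and 6 without wt replicate 2, wt replicate 3 or Stat5b-/- replicate 2). They ranged from 6 to 8 higher and 0 to 1 lower in Stat5a-/- against wt (1 without Stat5a-/- replicate 2 or 3 or Stat5b-/- replicate 1), and from 7 to 12 lower in Stat5b-/- against Stat5a-/- (7 without Stat5a-/- replicate 1). Apart from what the construction of an alternative shows, the cause was not tested. Deviations of same-numbered libraries from their group means correlated at -0.0877 on average over 9 pairs (-0.445 to 0.216) against 0.0438 over 18 other pairs, and 1 of 9 libraries correlated best with its own number, so the numbers were not taken as pairs. With the replicate block the members called were 2 higher and 7 lower, 8 higher and 0 lower, and 0 higher and 9 lower in the 3 comparisons in the order of the report; 7 calls were lost (Pmvk, Cyp51, Hsd17b7 and Insig1 in Stat5b-/- against wt, Hmgcs1, Fdft1 and Hsd17b7 between the knockouts) and none gained, and over all genes the block left 5754, 4313 and 3895 calls. Depth limits Idi1 and Tm7sf2 most, at 31 to 119 reads a library, and with 1 line per genotype no value measures variation between lines.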
